A study of Mus musculus with 4 samples.

Results

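The transcripts described here belong to a list of 10 mouse long noncoding RNA genes, namely AY036118, Malat1, Neat1, H19, Meg3, Kcnq1ot1, Airn, Mir17hg, Dleu2 and Pvt1. Every probe set that the platform annotation paired with exactly 1 of these symbols was taken, which gave 8 probe sets for 7 of the 10 genes, with a pair of probe sets for Pvt1. The whole table held 35556 probe sets, of which 21789 had exactly 1 symbol. Neat1, H19 and Kcnq1ot1 had no probe set carrying their symbol and are not analysed here. The list was chosen by the difference between the antibody and control arrays, in that AY036118 was put on it with its difference already seen to be the lowest among probe sets with 1 symbol. The antibody against control differences of all members are therefore given as a description, with their errors and without p-values. Where members are counted as called lower or higher, the count is a description as well.

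The study used RNA-binding protein immunoprecipitation followed by array hybridisation (RIP-Chip), in which an antibody pulls a protein out of a cell lysate with the RNA attached to it. RNA recovered with the antibody to an RNA-binding protein (RBP) was put on 2 arrays, and RNA recovered with control rabbit IgG on 2 more. The cells of all 4 were early erythroid progenitors of C57BL/6 mouse fetal liver at E14.5. They were what remained after removal of cells positive for CD34, CD41, CD16/32, Sca-1 or lineage antigens, sorted as c-Kit positive with low CD71. No label gives the protein's name. Knowledge of the publication points to ZFP36L2, a tristetraprolin family protein that binds AU-rich elements, and the files hold nothing to check this with. Whether both arrays of a group stem from separate preparations is not labelled, so errors and p-values reflect only how far these arrays differ, and that spread can be technical.

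Long noncoding RNAs are made by RNA polymerase II like mRNAs but are not known for a protein product, and many of them act or stay in the nucleus. Malat1 is a transcript of nuclear speckles. Airn and Meg3 belong to imprinted regions, where the copy from 1 parent is silenced. Mir17hg and Dleu2 are precursors of microRNAs, and Pvt1 lies beside Myc, the growth-promoting transcription factor. Zinc finger proteins of the tristetraprolin family are known for binding mRNAs at their 3′ ends and for recruiting deadenylases.

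The values are log2 levels per probe set. The array medians were 5.57 and 5.62 with the RBP antibody and 5.85 and 5.93 with IgG, and the interquartile ranges were 3.73 and 3.61 against 2.91 and 2.87. The RBP arrays correlated at r = 0.993, the IgG arrays at 0.978 and arrays of different groups at 0.949 to 0.956 (Pearson, across probe sets, as a description). The 95th percentile of 1243 chemosensory receptor probe sets, 5.36, is used below as the background level. All 8 genes listed for erythroid progenitors, among them Kit, Gata1 and Epor, lay above it. This list also holds Zfp36l2, the gene of the protein that the publication points to as the antibody's target. Of the markers of other cells, 3 of 6 for hepatoblasts, 4 of 6 for endothelial and stromal cells, 4 of 6 for macrophages, 4 of 6 for granulocytes and mast cells and 3 of 5 for megakaryocytes also lay above it. Those above it by their mean over the arrays included Alb and Trf of hepatoblasts, Pecam1 and Col1a1 of endothelium and stroma, Csf1r and Lyz2 of macrophages, Mpo and Elane of granulocytes and Itga2b and Gp9 of megakaryocytes. Those not above it by their mean were Afp, Apob and Ttr, Dcn and Kdr, Adgre1 and C1qa, Mcpt4 and Ngp, and Pf4 and Ppbp. Single arrays of some exceeded it. Afp did on 1 array of each group (5.65 on RBP array 1 and 6.22 on IgG array 1). C1qa did on both IgG arrays (5.56 and 5.39), Kdr on RBP array 1 (5.42) and Ttr on IgG array 1 (5.37). The log2 of the summed linear levels of the granulocyte and mast cell list was 11.96 and 11.05 on the RBP arrays and 12.37 and 11.32 on the IgG arrays. Of its 6 genes, 2 were lower (limma, adjusted p under 0.05). In the other lists, 5 of 8 erythroid and 1 of 5 megakaryocyte genes were higher and 1 of 6 macrophage genes was lower. Zfp36l2 was among the erythroid genes called higher (0.76 ± 0.18, SE; limma, adjusted p = 0.0267). Over all probe sets, 23.5% were higher and 6.64% lower. The part of these cells in the differences below was not tested.

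AY036118 had the lowest difference of the list and of the 21789 probe sets with 1 symbol. Its log2 level was 8.03 and 8.88 on the RBP arrays, against 12.26 and 12.63 on the IgG arrays. Even the higher RBP array lay below the lower IgG array, by -3.38 as RBP array 2 minus IgG array 1. The difference was -3.99 ± 0.31 (RBP minus IgG, SE; limma), which is 15.9-fold lower with the RBP antibody. No other probe set with 1 symbol had a lower difference, and the next lowest was Snord82, a box C/D small nucleolar RNA, at -3.56 ± 0.67, less than its own SE away. When each array was left out in turn, the difference of AY036118 ran from -4.42 to -3.56. Rescaling gave -4.23 with quantile normalization, -3.67 after centring on the chemosensory receptors and -4.37 with the trend on level removed. The other alternative settings change only the test and cannot move the difference. Both RBP arrays stood well above the background level for AY036118.

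The RefSeq table of assembly GRCm38.p6 lists AY036118 as a noncoding gene on chromosome 17 that overlaps Rn18s-rs5, an 18S ribosomal RNA related pseudogene. This match is by symbol, since the Entrez identifier of the platform annotation differs from that in RefSeq, so whether the probes lie in that ribosomal stretch is not settled here. The patterns most like that of AY036118 were looked for as the 5 smallest Euclidean distances over the log2 values of the 4 arrays. They belonged to 2 probe sets of Snord118 with identical values (distance 1.18), Snord57 (1.34), Snord49b (1.36) and Taf1d (1.55). Snord118, Snord57 and Snord49b are small nucleolar RNAs of the box C/D class, which guide or assist ribosomal RNA maturation, and Taf1d encodes a subunit of the RNA polymerase I factor SL1. These distances use the same 4 values that put AY036118 on the list, so they favour other probe sets with low differences. A function shared with AY036118 is not read from them and was not tested. Snord118 stood at 8.27 and 8.50 on the RBP arrays, against 11.35 and 12.04 on the IgG arrays, a difference of -3.31 ± 0.26.

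**Figure D1:**
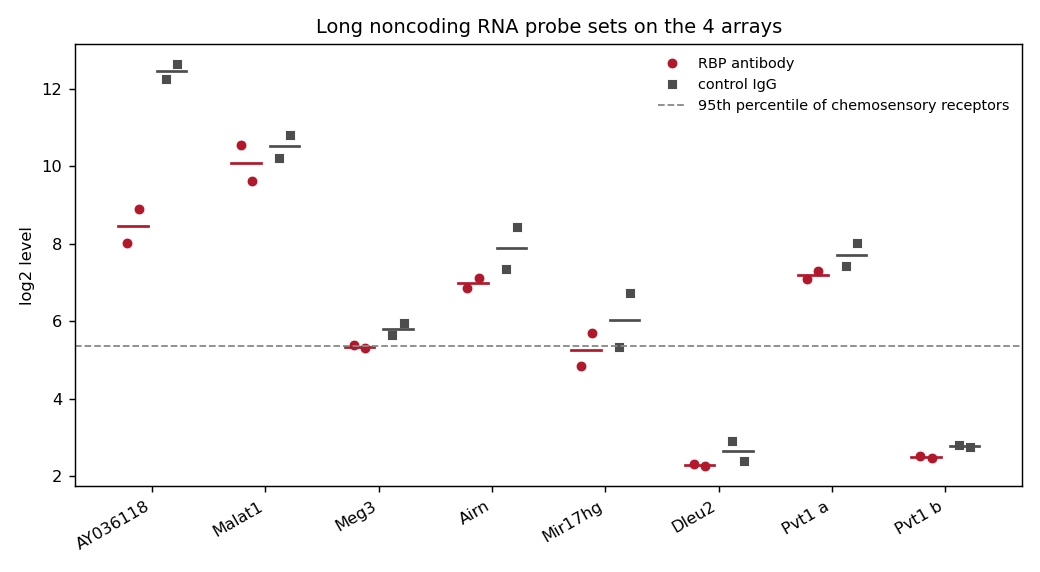
Log2 level of the 8 probe sets on each array, with RBP antibody arrays as red circles left of the control IgG arrays as grey squares, short bars for the means of 2 arrays and a dashed line at the background level of 5.36. Pvt1 a and b are its probe sets above and below that line. AY036118 lies near 8 to 9 with the RBP antibody and above 12 with IgG, while the groups of Malat1 and Mir17hg overlap.

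Malat1 had levels of 10.55 and 9.63 on the RBP arrays, against 10.21 and 10.80 on the IgG arrays. The groups overlapped, and the difference was -0.42 ± 0.35 (SE). Its direction turned on 1 array, since it was 0.04 without RBP array 2 and -0.88 without RBP array 1. A further probe set, annotated with both Malat1 and Ramp2 (a receptor activity-modifying protein) and so no member, behaved more evenly. It read 12.42 and 12.32 on the RBP arrays, against 13.37 and 13.37 on the IgG arrays. These groups did not overlap, and the difference was -0.998 ± 0.146, or 1.998-fold lower with the RBP antibody. The 5 probe sets nearest in pattern to Malat1 itself were Midn, a pair of probe sets of the ribosomal protein gene Rps9, Jund and Cmip, at distances of 0.56 to 0.67.

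The imprinted transcripts Airn and Meg3 were lower on both RBP arrays than on both IgG arrays. Airn, the paternally expressed antisense transcript of the Igf2r locus, read 6.84 and 7.12 on the RBP arrays, against 7.35 and 8.43 on the IgG arrays. The difference was -0.91 ± 0.36 (SE), and it was -1.45 without IgG array 1 and -0.37 without IgG array 2, the array on which Airn was highest. Probe sets within 0.5 log2 units of the mean level of Airn numbered 2699, with a median difference of 0.63, and 2.78% of them had a lower difference than Airn. Meg3, a maternally expressed transcript of the Dlk1 to Dio3 region, read 5.38 and 5.31 on the RBP arrays, against 5.64 and 5.95 on the IgG arrays. Its difference was -0.45 ± 0.17, with all 4 levels within 1 log2 unit of the background level.

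Mir17hg is the host transcript of the miR-17 to miR-92a cluster, and Dleu2 carries miR-15a and miR-16-1. All 10 microRNA genes looked up in Mir17hg, Dleu2, H19 and Meg3 were found in RefSeq (GRCm38.p6), and the 8 mature sequences of the first 2 hosts are shown because their probe sets extend the reading along these hosts. The seed, bases 2 to 8, is in capitals, and miR-17 with miR-20a, miR-19a with miR-19b, and miR-15a with miR-16 share a seed.
mmu-miR-17-5p: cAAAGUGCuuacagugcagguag
mmu-miR-20a-5p: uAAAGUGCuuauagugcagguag
mmu-miR-18a-5p: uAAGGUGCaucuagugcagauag
mmu-miR-19a-3p: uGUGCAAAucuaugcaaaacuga
mmu-miR-19b-3p: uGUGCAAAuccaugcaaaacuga
mmu-miR-92a-3p: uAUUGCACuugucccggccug
mmu-miR-15a-5p: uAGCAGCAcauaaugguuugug
mmu-miR-16-5p: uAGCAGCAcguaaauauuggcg

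The Mir17hg gene model in that assembly starts inside the cluster. Of 6 cluster hairpins, 5 begin before the annotated start of Mir17hg and 1, that of Mir92-1, begins after it. The 300 bases around this start, from 250 before to 50 after it, are shown because they make the overlap visible (GRCm38.p6, chr14:115044140-115044439, plus strand). Capitals mark 4 mature microRNAs, which are miR-20a-5p, miR-20a-3p, miR-19b-1-5p and miR-19b-3p in this order.
Mir17hg start: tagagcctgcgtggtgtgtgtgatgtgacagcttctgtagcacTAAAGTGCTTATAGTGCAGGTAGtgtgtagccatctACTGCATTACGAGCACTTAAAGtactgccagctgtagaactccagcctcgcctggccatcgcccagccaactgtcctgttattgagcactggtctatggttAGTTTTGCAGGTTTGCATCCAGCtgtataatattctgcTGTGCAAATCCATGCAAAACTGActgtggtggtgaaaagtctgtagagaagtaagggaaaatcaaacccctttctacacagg

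Mir17hg itself read 4.83 and 5.69 on the RBP arrays, against 5.34 and 6.74 on the IgG arrays. The groups overlapped, with RBP array 2 above IgG array 1. The difference was -0.77 ± 0.51 (SE), and it was -0.08 without IgG array 2. The microRNA probe sets upstream in the cluster shared the highest and the lowest array with Mir17hg. Mir18 read 3.69 and 5.42 on the RBP arrays, against 5.59 and 7.82 on the IgG arrays, without overlap, a difference of -2.15 ± 0.85 that did not pass (limma, adjusted p = 0.107). Mir17 (-1.27 ± 0.61), Mir19a (-1.60 ± 0.85), Mir20a (-1.05 ± 0.50) and Mir19b-1 (-1.08 ± 0.56) also had lower means with the RBP antibody and did not pass. The mean levels of Mir17, Mir19a, Mir20a and Mir19b-1, at 4.04 to 5.14, lay below the background level of 5.36. Only IgG array 2 exceeded that level for each of them. On all 5 of these microRNA probe sets and on Mir17hg, IgG array 2 was highest and RBP array 1 lowest. The probe set annotated with both Mir92-1 and Mir17hg read 4.28 and 5.53 on the RBP arrays, against 5.48 and 7.71 on the IgG arrays, a difference of -1.69 ± 0.87 with the same highest and lowest array. Array probes cannot tell a mature microRNA from its precursor or host transcript.

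**Figure D2:**
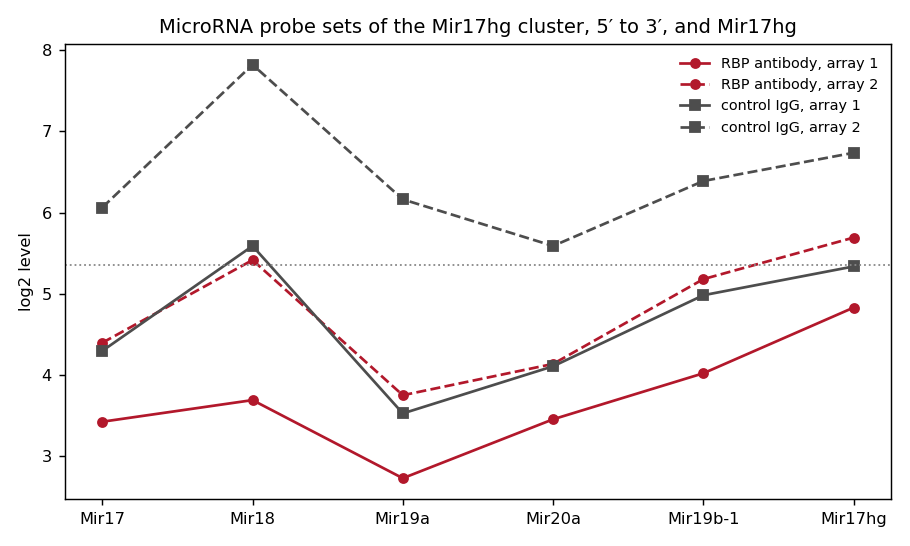
Log2 level of the 5 microRNA probe sets of the cluster, in their order along the chromosome, and of Mir17hg, with 1 line per array (red for RBP antibody, grey for control IgG, solid for array 1, dashed for array 2) and a dotted line at the background level of 5.36. Lines only join the points of an array. IgG array 2 is highest and RBP array 1 lowest throughout, with RBP array 2 and IgG array 1 close together between them.

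Dleu2, the antisense host of the miR-15a and miR-16-1 pair, read 2.30 and 2.26 on the RBP arrays, against 2.91 and 2.38 on the IgG arrays. All 4 values lay far below the background level, and the difference there was -0.37 ± 0.21 (SE). Mir15a, within the Dleu2 gene, was readable and fell with the RBP antibody. Mir15a read 5.34 and 5.81 on the RBP arrays, against 6.40 and 7.05 on the IgG arrays, a difference of -1.15 ± 0.28 (limma, adjusted p = 0.0293). This call was lost without either RBP array (adjusted p = 0.151 and 0.0548), without IgG array 2 (0.0531) and under quantile normalization (0.0681), centring on chemosensory receptors (0.0772) or a fit of all probe sets (0.07). Mir16-1 (-0.38 ± 0.17) did not pass and lay below background on all arrays. Of the 7 microRNA genes of these hosts with a probe set of their own, 1 was lower and 0 were higher in limma's test, with 2 and 0 at an unadjusted p under 0.05, and their median difference was -1.15. Beside 6.64% lower and 23.5% higher over all probe sets, a count of 1 among 7 is no result about these microRNAs.

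Pvt1 had 2 probe sets, 1 of them readable. The first read 7.09 and 7.30 on the RBP arrays, against 7.43 and 8.004 on the IgG arrays. The groups did not overlap, and the difference was -0.52 ± 0.23 (SE), with a range of -0.81 to -0.23 when each array was left out in turn. The second read 2.53 and 2.47 on the RBP arrays, against 2.79 and 2.75 on the IgG arrays. It lay below background, with a difference of -0.28 ± 0.14 that turned to 0.04 when arrays were centred on the chemosensory receptors.

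Over all 8 probe sets, the RBP minus IgG difference was below 0 for each, with a median of -0.49 against -0.03 over all 21789 probe sets. Without AY036118 the median of the other 7 was -0.45. Of all probe sets, 51.8% had a difference below 0. Both RBP arrays lay below both IgG arrays for 6 of the 8, against 36.4% of all probe sets, and both lay above both IgG arrays for 0 of the 8, against 37.2% of all. In limma's test with Benjamini-Hochberg adjustment over all probe sets, 1 member, AY036118, was called lower and 0 were called higher at an adjusted p under 0.05, where 6.64% of all probe sets were lower (1446), 23.5% higher (5115) and 30.1% either. These counts use the contrast that put AY036118 on the list, and nothing is read from them. The split over all probe sets depended on scaling, with 1365 higher and 1201 lower after quantile normalization, 1537 and 1272 with the trend on level removed, and 7658 and 388 after centring on the chemosensory receptors.

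**Figure D3:**
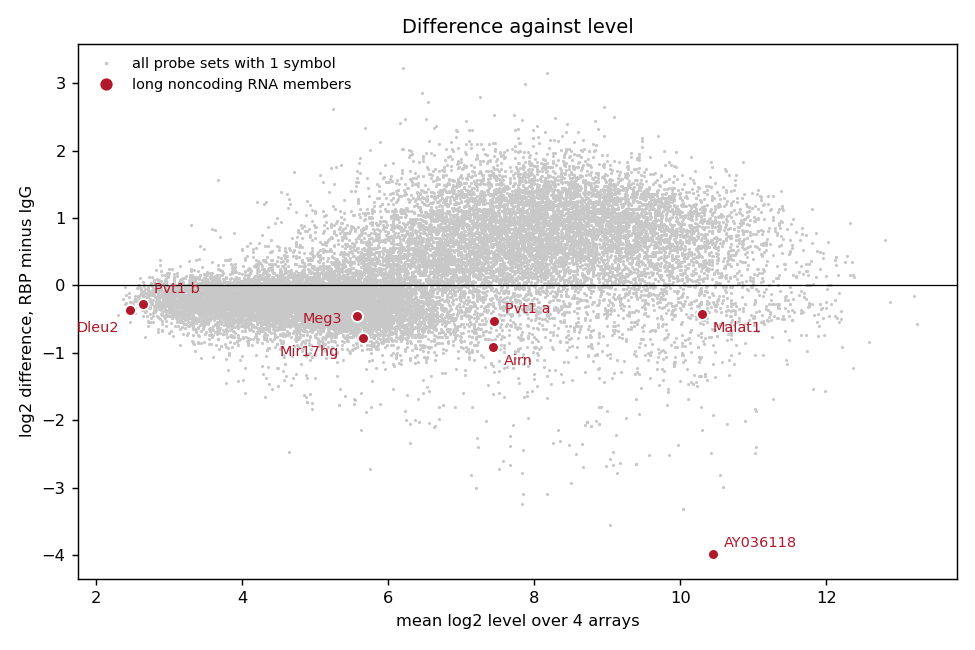
Log2 difference, RBP minus IgG, against the mean log2 level over 4 arrays, with 21789 probe sets as grey points and the 8 long noncoding RNA probe sets as labelled red points. AY036118 lies below every grey point at -3.99, and Airn, Malat1 and the readable Pvt1 probe set (Pvt1 a) lie below the bulk of grey points at their levels.

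Over all probe sets, the difference varied with the level. Probe sets with a mean level of up to 4, of 4 to 5 and of 5 to 6 each had a median difference of -0.23. Those of 7 to 8 had a median of 0.66, those of 10 to 11 a median of 0.50 and those of 11 to 14 a median of 0.11. Among the 1045 probe sets within 0.5 log2 units of Malat1 the median difference was 0.55, and 14.1% were lower than Malat1. Among the 2701 within the same distance of the readable Pvt1 probe set the median was 0.64, and 6.89% were lower. For the members at low levels, the median at their level was itself below 0. It was -0.22 for Meg3 and for Mir17hg, -0.20 for Dleu2 and -0.21 for the dim Pvt1 probe set. The shares that were lower were 20.6% for Meg3, 3% for Mir17hg, 15.8% for Dleu2 and 32.6% for that Pvt1 probe set. With this trend removed, a setting that subtracts the expected difference at each level, AY036118 differed by -4.37, Airn by -1.48, the readable Pvt1 probe set by -1.10, Malat1 by -0.83, Mir17hg by -0.64, Meg3 by -0.30, Dleu2 by -0.14 and the dim Pvt1 probe set by -0.049. The first 4 lay farther from 0 than on the deposited scale and the other 4 closer to it.

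The spread between arrays of 1 group, which the choice of members did not use, was wide for several of these RNAs. The median absolute gap between the IgG arrays was 0.55 over the 8 members and 0.24 over all probe sets, and that between the RBP arrays was 0.24 over the members and 0.13 over all. IgG array 2 exceeded IgG array 1 for 6 of the 8, against 42.5% of all probe sets. Mir17hg had a gap of 1.40 between the IgG arrays, and 0.661% of all probe sets had a wider one. Airn had a gap of 1.08 there, which 2.01% exceeded. Between the RBP arrays, Malat1 (-0.92, array 2 minus array 1), AY036118 (0.86) and Mir17hg (0.86) each had a gap that 0.877% to 1.13% of probe sets exceeded. Gaps of these 3 members thus ran in both directions.

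Of 18 measured genes beside the members, or imprinted with them, 3 were higher, 1 was lower and 14 did not pass (limma, adjusted p under 0.05), with a median of -0.16 against -0.03 over all probe sets. Over all probe sets, 23.5% were higher and 6.64% lower. Among the 16 neighbours above background 3 were higher, a share below the 35.9% among all probe sets above background. The counts are no result about the neighbours. Igf2r, the receptor that clears IGF2 and lies opposite Airn, rose by 2.16 ± 0.16 (SE; limma, adjusted p = 0.0057), with levels of 9.85 and 9.64 on the RBP arrays against 7.55 and 7.62 on the IgG arrays. Airn and Igf2r thus lay on opposite sides of 0, and whether these probes separate the strands is not given in the sources used here. Frmd8, a FERM domain protein whose gene lies beside Neat1, rose by 1.09 ± 0.18 (limma, adjusted p = 0.0101), a call lost without RBP array 1 (adjusted p = 0.0833). Trim13, a ubiquitin ligase gene that overlaps Dleu2, rose by 0.80 ± 0.23 (limma, adjusted p = 0.0475), and this call was lost when any single array was left out (adjusted p of 0.054 to 0.273). Kcnq1, the potassium channel gene that overlaps Kcnq1ot1, fell by 0.64 ± 0.17 (limma, adjusted p = 0.0416), a call lost without either RBP array (0.273 and 0.152) and without IgG array 1 (0.0668). With quantile normalization or the level trend removed, the calls of Frmd8, Trim13 and Kcnq1 were lost, and that of Igf2r was not. Kcnq1 also lost its call after centring on the chemosensory receptors (-0.32, limma, adjusted p = 0.189), and it and Trim13 lost theirs in a fit of all probe sets.

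The other neighbours named did not pass. Myc, next to Pvt1, read 12.004 and 12.064 on the RBP arrays and 11.77 and 11.79 on the IgG arrays, a difference of 0.25 ± 0.14 that did not pass (limma, adjusted p = 0.216) but passed after centring on the chemosensory receptors (0.57, adjusted p = 0.0266). Dlk1, a Notch ligand-like protein gene upstream of Meg3, differed by -0.08 ± 0.15 (limma, adjusted p = 0.701). Its direction depended on scaling, at 0.24 after that centring and -0.76 with quantile normalization, where it passed (adjusted p = 0.0356). Igf2 (-0.94 ± 0.45), Cdkn1c (-0.48 ± 0.16) and Gpc5 (-0.34 ± 0.19) did not pass with all arrays, and each passed as lower without IgG array 2 (limma, adjusted p of 0.0193 for Igf2, 0.0321 for Cdkn1c and 0.0428 for Gpc5).

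**Figure D4:**
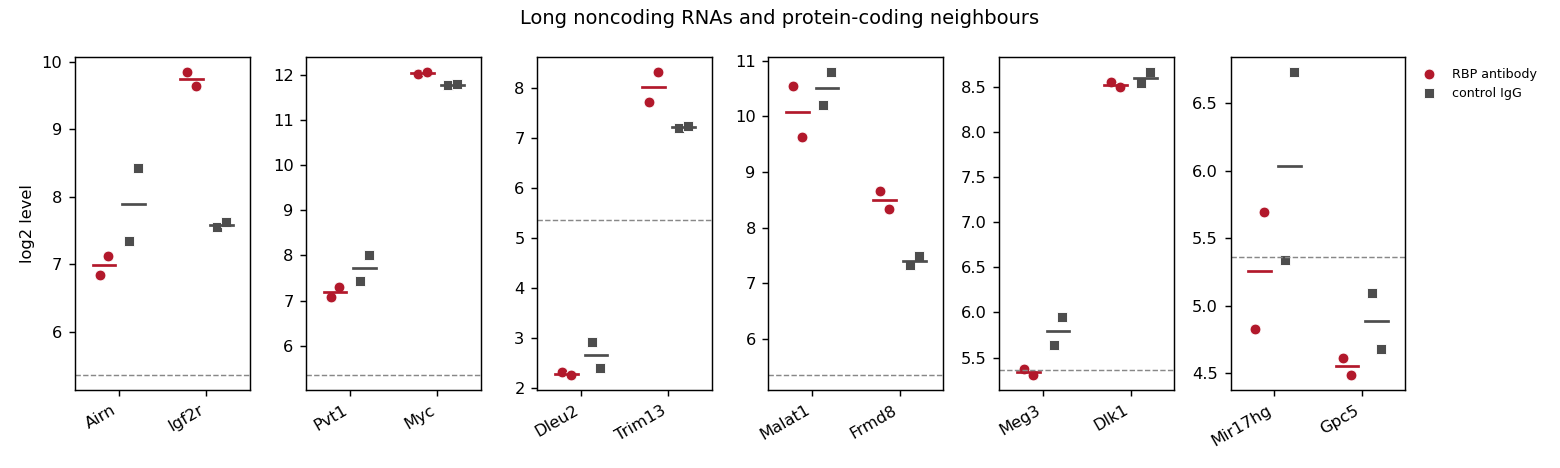
Log2 level of 6 long noncoding RNAs and a protein-coding neighbour of each, with RBP antibody arrays (red circles) left of control IgG arrays (grey squares), bars for means of 2 arrays and a dashed line at the background level. Each panel has its own scale. Igf2r is higher with the RBP antibody by 2.16 while Airn is lower by 0.91.

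Long noncoding RNAs outside the list went in both directions. Of 51 listed, 17 had a probe set of their own, and 1 of these was higher, 3 were lower and 13 did not pass (limma, adjusted p under 0.05), with a median difference of -0.24. Over all probe sets, 23.5% were higher and 6.64% lower. In all, 8 of the 17 lay above background. Xist, the nuclear RNA that silences an X chromosome, fell by 1.67 ± 0.40 (SE; limma, adjusted p = 0.0291), with levels of 8.97 and 9.58 on the RBP arrays against 10.39 and 11.50 on the IgG arrays. The groups did not overlap, but the call was lost without RBP array 1 (adjusted p = 0.117) and after centring on the chemosensory receptors (0.0515) or in a fit of all probe sets (0.0714). Morrbid, a transcript known for controlling myeloid cell survival, fell by 1.12 ± 0.15 (limma, adjusted p = 0.00656), while a second probe set of it, below background, gave 0.10. Without RBP array 1 the call of Morrbid was lost as well (adjusted p = 0.0604). Hottip, from the end of the HoxA cluster, fell by 0.56 ± 0.14 (limma, adjusted p = 0.0362) at levels below background, and lost its call without either RBP array (0.284 and 0.193). Its difference was -0.34 with quantile normalization, -0.33 with the level trend removed and -0.24 after centring, where it did not pass (limma, adjusted p of 0.181 to 0.272), and a fit of all probe sets also lost the call (0.0682).

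Norad, a cytoplasmic RNA known for binding Pumilio proteins, was the transcript that rose. It read 10.61 and 10.68 on the RBP arrays, against 9.82 and 9.83 on the IgG arrays, a difference of 0.82 ± 0.14 (limma, adjusted p = 0.0117). A second Norad probe set differed by 0.29 ± 0.15 and did not pass. The call was lost without either RBP array (limma, adjusted p = 0.0928 and 0.108) with quantile normalization (0.131) and with the level trend removed (0.127). Its difference was 0.40 both with that normalization and with the level trend removed.

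Noncoding genes known or named as hosts of small nucleolar RNAs, and small structured RNAs, were mostly lower. Both lists were set with earlier results of these data known, so their counts and p-values are a description. Of 21 host genes listed, 13 had no probe set of their own. Of 8 host genes measured, of which RefSeq places a small nucleolar RNA gene inside 3, 6 were lower and 0 were higher (limma, adjusted p under 0.05; 6 and 0 at an unadjusted p under 0.05). Their median difference was -0.93. All 8 lay above background, where 6.83% of all probe sets were lower and 35.9% higher. Snhg17 fell by 2.58 ± 0.45 (SE), Gm12238 by 1.54 ± 0.22, Snhg15 by 1.45 ± 0.30 and Gas5, which carries Snord47, by 1.13 ± 0.27, with limma's adjusted p of 0.00777 to 0.0279. Other probe sets of Gas5 gave -3.00 to -2.37 and were also called lower, as were those of Snhg17 at -2.44 and -1.22. Snhg11, counted as lower at -0.68, had another probe set at -0.09 that did not pass. The count of lower hosts was 2 without RBP array 1 and 2 without RBP array 2.

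Of 16 structured RNAs listed, 11 had no probe set of their own, among them every ribosomal RNA annotation. The list was set with earlier results of these data known, and its counts are a description. All 5 structured RNAs with a probe set of their own were lower and 0 were higher (limma, adjusted p under 0.05; 5 and 0 unadjusted), with a median of -2.15, beside 6.83% lower among all probe sets above background. They were Rpph1, the RNase P RNA (-2.49 ± 0.15), Rmrp, the RNase MRP RNA (-2.22 ± 0.20), the RNase P-like Rprl2 (-2.15 ± 0.14) and Rprl1 (-1.78 ± 0.19), and Rn7sk, which restrains the elongation factor P-TEFb (-0.84 ± 0.14), the last named after its value was seen. Another Rn7sk probe set gave -1.22 ± 0.15 and was also called lower. Rpph1 read 9.79 and 9.76 on the RBP arrays, against 12.18 and 12.34 on the IgG arrays. AY036118, at -3.99, lay below all 5 of these RNAs. It was put on the list as the lowest of all probe sets with 1 symbol, so this was fixed in advance and nothing is read from it. Every other member, at -0.91 to -0.28, lay closer to 0 than the median of the structured RNAs.

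**Figure D5:**
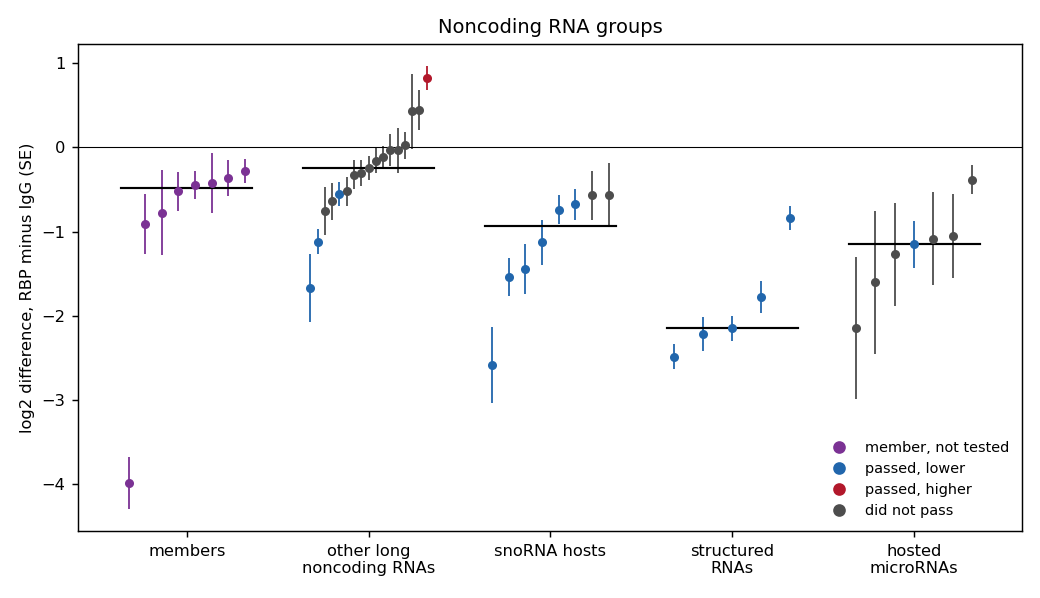
Log2 difference, RBP minus IgG, with its SE, ordered by size within a group, with group medians as black lines. The groups are the 8 members (purple), 17 other long noncoding RNAs, 8 small nucleolar RNA hosts, 5 structured RNAs and 7 hosted microRNAs. The key marks members as not tested, since their calls are not coloured here. Blue points passed limma's test as lower, red as higher and grey did not pass. Norad is the red point.

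The mRNAs of proteins that build paraspeckles on Neat1 or meet Malat1 in speckles were compared next. Of 16 measured, all above background, 5 rose and 11 did not pass, and 0 fell (limma, adjusted p under 0.05; 7 rose and 0 fell unadjusted), a share of rises below the 35.9% among all probe sets above background, so it is no result about this list. Tardbp, which encodes the RNA-binding protein TDP-43, rose by 0.99 ± 0.16 (SE; limma, adjusted p = 0.0104), the speckle scaffold Son by 0.69 ± 0.18, the paraspeckle protein Nono by 0.69 ± 0.19 and the cleavage factor Nudt21 by 0.61 ± 0.16. Srsf1, a splicing factor found with Malat1 in speckles, rose by 0.57 ± 0.14 and was named after its value was seen. The list median was 0.36. No gene of the list was called higher with quantile normalization, with the level trend removed or without either RBP array, and 2 were called lower in each of the first 2 settings. The sign of Nudt21 turned in these scalings (-0.037 and -0.006).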

How the data were processed

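RNA from 4 immunoprecipitates was measured on arrays of the whole-transcript type. The deposited values are log2 levels per probe set. Per the submitters' processing notes the authors used RMA and affy, and no version or filter is stated there. A range of 1.83 to 13.87 fits log2. Symbols came from the platform annotation: 21789 probe sets had 1, 1621 several and 12146 none. For 21698 of the 21789 the Entrez identifier was in the RefSeq table of GRCm38.p6, which changed 0 symbols.

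Differences, RBP minus IgG, were fitted in R 4.3.3 with limma 3.58.1 (lmFit, eBayes; 2 residual and 3.7 prior degrees of freedom) on the 21789 probe sets, two-sided, with Benjamini-Hochberg adjustment over all of them and a threshold of 0.05. The number of arrays limits precision: the median SE was 0.17, and an exact permutation p of 2 against 2 cannot fall below 0.333. No filter on level was set. Listed genes were counted by their probe set with the highest mean. The fit was tested on simulated data. The members, gene lists and settings were chosen with earlier results of these data known.

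Named were all members, 8 set neighbours where measured, up to 4 called genes per list by size (2 where none was called) and the nearest patterns. The remaining microRNAs of the hosts, second probe sets, Rn7sk and Srsf1 were added after their values were seen. Alternatives were quantile normalization, centring on 1243 chemosensory receptor probe sets, removal of a loess trend on level (span 0.3), a filter at the background level, all probe sets, 1 probe set per gene, the replicate number as a block, trend and robust variance, no moderation and leaving out each array. With 1 array left in a group, that array is assumed to vary like the others. All value columns were used.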

Additional observations from a re-analysis of the deposited data

How the results depend on the processing

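With 2 arrays a group, calls need the variance that limma borrows from other probe sets: with no variance moderation, 1 probe set was higher and 0 were lower, and every list count was 0. Centring on the chemosensory receptors moved the median of all probe sets to 0.29, against -0.03, and left 388 lower probe sets, 2 higher and 1 lower among other long noncoding RNAs, 3 lower hosts of small nucleolar RNAs, 0 lower hosted microRNAs and 7 higher and 0 lower neighbours. Dlk1 turned to 0.24 there. Quantile normalization gave 1365 higher probe sets, 0 higher other long noncoding RNAs, 0 lower hosted microRNAs, 1 higher neighbour, and 0 higher and 2 lower paraspeckle genes. Removing the level trend gave 1537 higher probe sets, 2 lower members, 0 higher other long noncoding RNAs, 1 higher neighbour, and 0 higher and 2 lower paraspeckle genes. Nudt21 turned to -0.037 and -0.006 in these settings. With all probe sets in the fit, 470 were lower, with 1 other long noncoding RNA, 2 hosts, 0 hosted microRNAs and 0 neighbours lower and 1 paraspeckle gene higher. Above background only, 2 neighbours were lower.

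Same-numbered arrays correlated in their deviations (r = 0.26), but with 2 pairs and no label of a shared preparation the numbers do not pair the arrays. With the replicate block 2452 probe sets were lower, among them 4 members, 6 other long noncoding RNAs, 6 hosted microRNAs and 3 neighbours, and 5 neighbours and 8 paraspeckle genes were higher. Leaving out each array gave 1613 to 5522 higher and 94 to 3220 lower probe sets, and 1 to 5 lower members. Each of these fits leaves 1 array in a group. Nothing is read about the members from these counts, whose contrast put AY036118 on the list. The ranges were 0 to 3 higher and 0 to 4 lower for other long noncoding RNAs, 2 to 6 lower for hosts, 0 to 5 lower for hosted microRNAs, 1 to 3 higher and 0 to 7 lower for neighbours, 0 to 7 higher for paraspeckle genes and 4 to 5 lower for structured RNAs. Of 23 called genes named, 16 lost their call without RBP array 1, 13 without RBP array 2, 5 without IgG array 1 and 2 without IgG array 2. AY036118 stayed between -4.42 and -3.56 when the arrays were rescaled or 1 was left out. The remaining settings change only the test and cannot move a difference. The difference of Malat1 turned to 0.04 without RBP array 2 and that of the dim Pvt1 probe set to 0.04 after centring, while the other members kept their sign in every setting run. Signal near background limits Dleu2, Meg3, Mir17hg and most hosted microRNAs. The cause of these changes was not tested.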
